A study of Mus musculus with 4 samples.

Results

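The 10 genes described here encode the NF-kB subunits (Nfkb1, Nfkb2, Rel, Rela and Relb) and a set of proteins that restrain or tune them (Nfkbia, Nfkbiz, Nfkbid, Tnfaip3 and Bcl3). They were taken by symbol from the 53379 genes with expression values in group 3 innate lymphoid cells (ILC3s), and all 10 were among the 14739 genes with a mean above 1 FPKM in either group, which were tested. FPKM is the fragment count scaled to transcript length and library size, so that levels of different genes can be set side by side.

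The study asked what the chromatin remodeler Brg1, encoded by Smarca4, does in intestinal ILC3s. In each mixed chimera, bone marrow cells of Thy1.2 Rag1-/- Smarca4 f/f donors and of Thy1.1 Thy1.2 Rag1-/- Smarca4 f/f donors with conditional deletion of Smarca4 were given together to sublethally irradiated Rag2-/-Il2rg-/- hosts. After 6 to 7 weeks, ILC3s of the small intestinal lamina propria were sorted by donor origin as Thy1.2high CD45low cells, Thy1.1- for the Brg1-sufficient controls and Thy1.1+ for the Brg1-deficient cells, and RNA of 2 libraries per group was sequenced. Both groups carried floxed Smarca4 alleles and lacked Rag1, and only the Brg1-deficient donors carried Thy1.1, so the deletion and the congenic marker cannot be told apart. The age of the mice is not given in the labels, and the methods call the libraries biological duplicates without saying how many mice each holds.

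NF-kB is a family of transcription factors whose subunits pair with each other and are held in the cytoplasm by inhibitor (IkB) proteins. Signals from receptors for interleukin-1, tumor necrosis factor or microbes lead to phosphorylation and degradation of the inhibitor, after which the dimers enter the nucleus and switch on cytokine, survival and feedback genes. Several of the inhibitors are themselves NF-kB targets, so their mRNA can rise after NF-kB activation. In ILC3s, such signals drive the production of IL-22 and GM-CSF.

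NF-kB binds a 10-base DNA element known as the κB site, and the promoters of the genes that the results turn on are given with the matches to the κB consensus in capitals. The windows ran from 250 bases before to 50 bases after each RefSeq gene start on GRCm38.p6, and both strands were searched. Of the 10 genes, 7 were matched in that table, and 6 of the 7 held at least 1 match, against 5.14% of the 27025 genes and 4.51% of the 32851 windows in the whole table. A match is a string of letters and not a measured binding site.

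The 250 bases before the start of Nfkbia are printed whole, because Nfkbia is the member with the clearest difference between groups, and its match begins 29 bases before the start.
Nfkbia, chr12:55492648-55492897 (-): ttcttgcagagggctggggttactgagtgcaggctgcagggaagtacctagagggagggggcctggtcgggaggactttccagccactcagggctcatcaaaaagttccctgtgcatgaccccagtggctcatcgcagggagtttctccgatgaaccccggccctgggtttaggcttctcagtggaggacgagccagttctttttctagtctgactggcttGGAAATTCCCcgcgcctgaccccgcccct

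For other members, the match is shown with up to 10 bases on each side, in the direction of the gene, to show how alike the elements are in a subunit gene and in an inhibitor gene.
Nfkb2, 39 bases before the start, chr19:46304689-46304717 (+): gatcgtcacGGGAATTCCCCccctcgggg
Nfkb2, 11 bases before the start, chr19:46304716-46304745 (+): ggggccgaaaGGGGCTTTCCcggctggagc
Rel, 92 bases before the start, chr11:23771042-23771070 (-): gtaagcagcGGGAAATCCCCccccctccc
Nfkbid, 226 bases before the start, chr7:30422170-30422199 (+): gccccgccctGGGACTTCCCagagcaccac
Nfkbid, 181 bases before the start, chr7:30422215-30422244 (+): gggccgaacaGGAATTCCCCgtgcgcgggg
Tnfaip3, 125 bases before the start, chr10:19015516-19015545 (-): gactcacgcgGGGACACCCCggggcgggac
Tnfaip3, 12 bases before the same start, chr10:19015403-19015432 (-): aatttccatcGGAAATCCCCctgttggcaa
Bcl3, just after the start, chr7:19822734-19822763 (-): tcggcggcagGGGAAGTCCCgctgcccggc

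The Nfkb2 and Rel elements include 11-base runs in which matches overlap, and Nfkb2 held matches at each of 3 annotated starts. The window of Rela held none. Across the 9172 tested genes found in the table, 568 (6.19%) held a match. Their median log2 fold change (Brg1-deficient over Brg1-sufficient) was 0.02, against 0.04 for the 8604 genes without one. At an unadjusted p under 0.05 (limma, described below), 6.69% of genes with a match were higher and 7.92% lower. The shares were 5.86% and 6.01% for genes without one.

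Smarca4 was at 17.1 and 16.7 FPKM in the controls, against 9.98 and 9.03 FPKM in Brg1-deficient cells, 56.2% of the control mean (log2 fold change -0.77, standard error 0.164, adjusted p = 0.153). Il7r, which encodes an interleukin receptor chain of ILCs, was present in all 4 libraries, at 433 and 542 FPKM in controls and at 486 and 583 FPKM in Brg1-deficient cells, and the ILC3 cytokine gene Il22 was at 8328 FPKM or more. Markers of ILC subsets differed between the groups: Ncr1, which encodes NKp46, fell from 31.3 and 35.5 FPKM in controls to 5.37 and 6.02 FPKM in Brg1-deficient cells (adjusted p = 0.0330 from limma) and Ifng from 22.8 and 37.3 to 3.42 and 3.22 FPKM (adjusted p = 0.0386), while Ccr6 was at 186 and 203 FPKM against 92.9 and 106 FPKM (adjusted p = 0.0901) and Tbx21, which encodes T-bet, at 4.21 and 6.04 FPKM against 1.28 and 0.9 FPKM (adjusted p = 0.119). The part of the ILC3 subsets in the levels of the NF-kB genes was not tested. Library depth is unknown, since the values used were FPKM. Of 13693 ranks with a mean above 1 FPKM, 13596 (99.3%) held values that differed by less than 1% between libraries, so that a gene's FPKM is set by its rank in the library, and the 14739 tested genes had a median of 0.03 for the log2 fold change. Differences were tested with limma on log2(FPKM + 1), a scale that understates changes of low genes, with Benjamini-Hochberg adjustment over all 14739 genes. With 2 libraries per group an exact two-sided permutation test of 1 gene cannot give a p below 0.33. In sorted cells measured in bulk, fewer cells of a type and less RNA per cell cannot be told apart.

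None of the 10 members passed an adjusted p under 0.05 from limma, where 0.0814% of all genes tested were called higher and 0.224% lower in Brg1-deficient cells, and at an unadjusted p under 0.05 there was 1 higher member, Nfkbia, and 0 lower, against 902 (6.12%) higher and 953 (6.47%) lower of all genes tested. The study's own limits for changed genes were an FDR under 0.05 and a mean above 1 FPKM in either group, and it set others for the genes entering its ontology analysis. By the latter (p under 0.05, FDR under 0.4, a mean above 5 FPKM in either group and a fold of the means beyond 0.5 on the log2 scale), called list criteria below, Nfkbia alone was higher, 1 of 10 members against 3.85% of all genes, and 0 members were lower against 4.37%. Genes at or below 5 FPKM in both groups cannot meet the list criteria, which lowers the shares given for all genes here and below. All 10 members were among the 9095 genes with a mean above 5 FPKM. In a fit of those genes, 525 were higher and 615 lower by the list criteria. In 3 members, Nfkbia, Nfkbiz and Nfkbid, both Brg1-deficient libraries were above both controls, and 0 members had the opposite separation. Such separations were common, at 24.4% of all genes for higher and 20.2% for lower. None of the 5 subunits had such a separation in either direction.

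**Figure D1:**
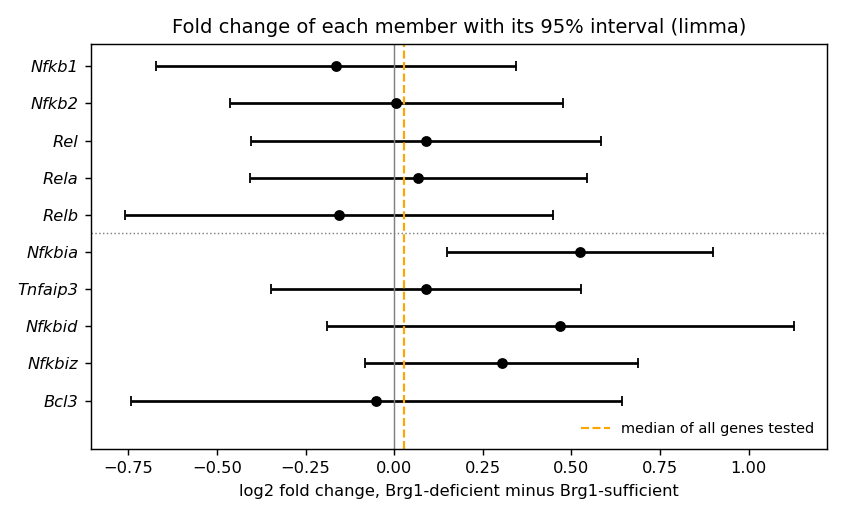
Log2 fold changes (Brg1-deficient over Brg1-sufficient, on log2(FPKM + 1)) of the 10 members with their 95% confidence intervals from limma, n = 2 libraries per group. The interval of Nfkbia, from 0.15 to 0.90, lies above 0, and the other 9 intervals include 0.

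Among the subunits, Nfkb1 encodes p105, the precursor of the p50 subunit. It was at 157 and 110.3 FPKM in the controls, against 122 and 113 FPKM in Brg1-deficient cells. Both Brg1-deficient values lay between the control values (log2 fold change -0.16, standard error 0.202, 95% interval -0.67 to 0.34, adjusted p = 0.769 from limma).

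Nfkb2 encodes p100, the precursor of p52 in the noncanonical pathway, and was at 68.0 and 79.5 FPKM in controls and at 84.4 and 64.6 FPKM in Brg1-deficient cells. Here the control values lay between the Brg1-deficient ones, and the fold change was 0.01 on the log2 scale (95% interval -0.46 to 0.48). Rel, which encodes the lymphoid subunit c-Rel, was at 92.1 and 72.8 FPKM in controls and at 98.9 and 77.0 FPKM in Brg1-deficient cells (log2 fold change 0.09, 95% interval -0.40 to 0.58). The groups overlapped for both genes.

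Rela encodes p65, the main activating subunit of the canonical pathway. It was at 70.7 and 71.9 FPKM in controls, which were almost equal, and at 87.8 and 63.8 FPKM in Brg1-deficient cells, on either side of them (log2 fold change 0.07, 95% interval -0.41 to 0.54). Relb, the partner of p52, was at 40.9 and 38.1 FPKM in controls and at 44.3 and 28.1 FPKM in Brg1-deficient cells (log2 fold change -0.16, 95% interval -0.76 to 0.45). The interval of each subunit included 0.

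Brg1-deficient replicate 1 was above Brg1-deficient replicate 2 in each of the 5 subunit genes, as it was in every other member except Nfkbia. The summed level of the subunits was 429 and 373 FPKM in controls and 437 and 347 FPKM in Brg1-deficient cells. The direction of each subunit turned when single libraries were left out: without Brg1-deficient replicate 2, Rela was at 0.30 and Relb at 0.16 on the log2 scale, and without Brg1-deficient replicate 1 they were at -0.16 and -0.48.

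**Figure D2:**
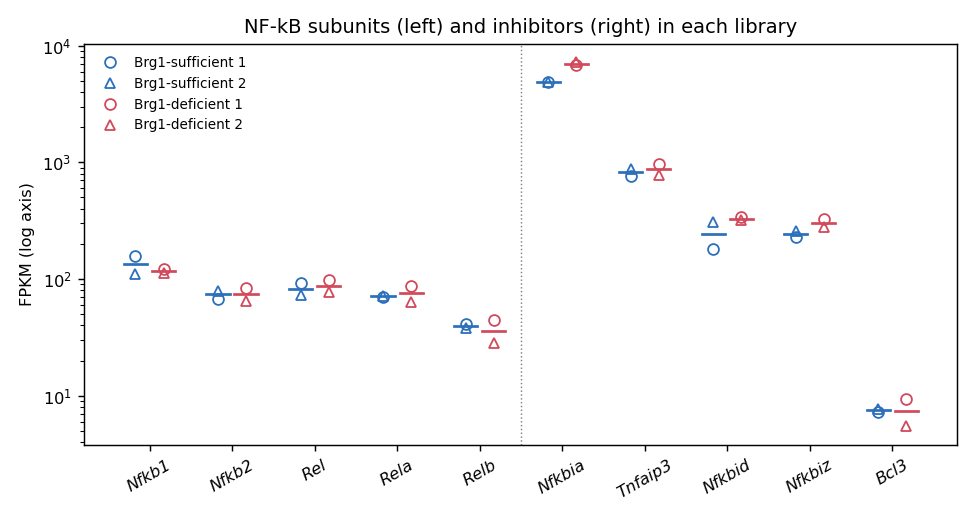
FPKM (log axis) of each of the 10 members in each of the 4 libraries, Brg1-sufficient in blue and Brg1-deficient in red, with a bar at the mean of each group of 2. Nfkbia stands highest in every library, from 4831 to 7209.6 FPKM, and Bcl3 lowest, from 5.45 to 9.38 FPKM.

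Nfkbia encodes IkBα, which binds RelA-containing dimers and whose resynthesis ends a round of signaling. It was at 4831 and 4924 FPKM in the controls, against 6828 and 7209.6 FPKM in Brg1-deficient cells. The 4 values formed a low and a high pair without overlap, and the Brg1-deficient mean was 144% of the control mean (log2 fold change 0.52, standard error 0.149, 95% interval 0.15 to 0.90, adjusted p = 0.251 from limma).

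In rank terms, Nfkbia was the 14th and 13th most abundant gene in the control libraries and the 7th and 6th in the Brg1-deficient ones. Because values at a given rank were nearly the same in every library (the gap at the ranks that members held was at most 0.966%), its fold change is the step between the values that belong to those ranks. The log2 fold change stayed between 0.49 and 0.56 when any library was left out, but the list criteria were then not met, with adjusted p values from limma between 0.330 and 0.731. They were also not met after median-of-ratios scaling, at a log2 fold change of 0.49.

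Nfkbiz encodes IkBζ, a nuclear IkB protein that promotes transcription of secondary response genes, among them IL-17-related genes in lymphocytes. It was at 231 and 258 FPKM in controls and at 328 and 277 FPKM in Brg1-deficient cells, without overlap. Its log2 fold change was 0.30 (standard error 0.153, 95% interval -0.08 to 0.69, adjusted p = 0.498 from limma) and was between 0.18 and 0.43 with any library left out.

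Nfkbid encodes IkBNS, another nuclear IkB protein, and was at 183 and 308 FPKM in controls and at 339 and 319 FPKM in Brg1-deficient cells. The groups did not overlap, but the gap between the controls was larger than that between the nearest libraries of the 2 groups (log2 fold change 0.47, standard error 0.262, 95% interval -0.19 to 1.13, adjusted p = 0.534 from limma). The value rested on 1 control: it was 0.09 without Brg1-sufficient replicate 1 and 0.85 without Brg1-sufficient replicate 2, and in the latter case Nfkbid met the list criteria.

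Tnfaip3 encodes A20, a ubiquitin-editing enzyme that stops signaling upstream of the IkB kinase. It was at 762 and 884 FPKM in controls and at 976 and 780.45 FPKM in Brg1-deficient cells, with overlap (log2 fold change 0.09, 95% interval -0.35 to 0.53). Bcl3, a nuclear IkB protein that binds p50 and p52 homodimers, was at 7.22 and 7.73 FPKM in controls and at 9.38 and 5.45 FPKM in Brg1-deficient cells (log2 fold change -0.05, 95% interval -0.74 to 0.64). Both control libraries of Bcl3 lay between the Brg1-deficient ones. Over the 5 inhibitors and atypical IkB proteins, the median log2 fold change was 0.30, against 0.01 over the subunits and 0.03 over all genes tested.

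**Figure D3:**
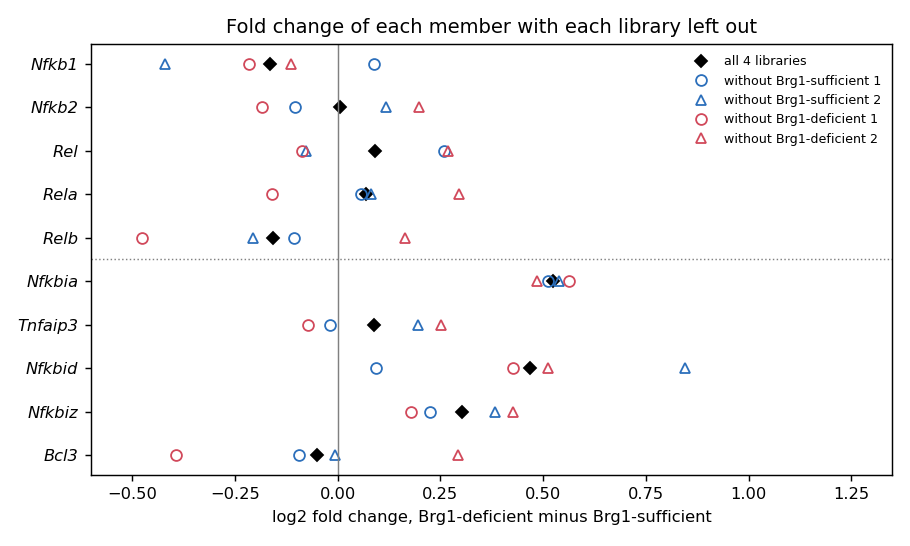
Log2 fold changes (Brg1-deficient over Brg1-sufficient) of the 10 members with all 4 libraries (black diamonds) and with each library left out in turn (open symbols). Nfkbia stays between 0.49 and 0.56, Nfkbid spreads from 0.09 to 0.85, and the 5 subunits, Tnfaip3 and Bcl3 fall on both sides of 0.

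The 10 members covered a wide range of levels. Over the 4 libraries, Nfkbia had a mean of 5948 FPKM and Tnfaip3 of 851 FPKM, and neither overlapped the next gene in the order. Nfkbid (287 FPKM) and Nfkbiz (273 FPKM) followed with overlapping ranges, then Nfkb1 (126 FPKM) alone. Rel, Nfkb2 and Rela came next at 85.2, 74.1 and 73.6 FPKM, where neighbours overlapped, and Relb (37.8 FPKM) and Bcl3 (7.45 FPKM) stood apart at the low end. The order was kept in both groups except that Nfkb2 and Rela, which overlapped, changed places.

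The inhibitor sum covers the 5 inhibitors and atypical IkB proteins, including Nfkbiz, whose product promotes transcription. It was 6013 and 6382 FPKM in controls and 8481 and 8591 FPKM in Brg1-deficient cells. Its ratio to the summed subunit level was 14.01 and 17.1 in controls and 19.4 and 24.8 in Brg1-deficient cells, without overlap. Nfkbia made up between 77.2% and 83.9% of the inhibitor sum in every library. Without it the ratio was 2.76 and 3.91 in controls and 3.78 and 3.98 in Brg1-deficient cells, which overlapped. The ratio of Nfkbia to Rela, its main partner, was 68.3 and 68.5 in controls and 77.8 and 113 in Brg1-deficient cells. These ratios follow from the levels already given and were not tested.

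**Figure D4:**
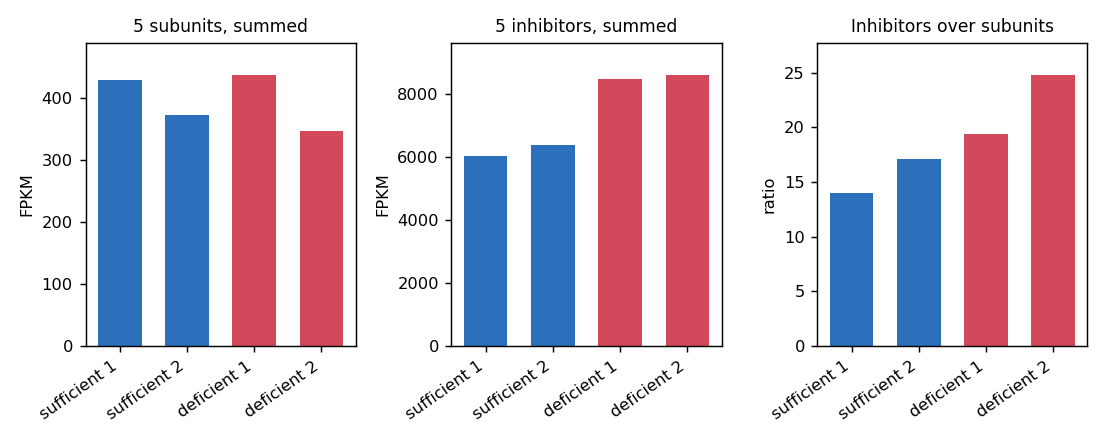
Bars, 1 per library (Brg1-sufficient blue, Brg1-deficient red), of the summed FPKM of the 5 subunits and of the 5 inhibitors and atypical IkB proteins (labelled inhibitors). The last panel shows the ratio of inhibitors to subunits. The Brg1-deficient libraries are the higher pair for the inhibitor sum and for the ratio, and the groups overlap in the subunit sum.

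Likeness between genes was measured as the distance between their 4 centred log2(FPKM + 1) values, which describes 4 libraries only. Among the pathway genes described next, the one nearest to Nfkbia was Ccnd2 (distance 0.109), and its nearest fellow member was Nfkbiz (0.332). Tnfaip3 and Nfkb2 were the closest pair of members (0.0928), and Relb and Bcl3 were nearest to each other (0.172). Rela was nearest to Zc3h12a (0.0445), Nfkbid to Ltbr (0.0912), Tnfaip3 to Bcl2a1d (0.0473), Rel to Tax1bp1 (0.143) and Nfkb1 to Map3k7 (0.170).

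The members were set beside 80 other genes of the pathway, of which 79 were tested, Ccl20 being too low. None passed an adjusted p under 0.05 from limma, and 7 (8.86%) were higher and 8 (10.1%) lower at an unadjusted p under 0.05, against 6.12% and 6.47% of all genes. By the list criteria 7 of 79 (8.86%) were higher and as many were lower, against 3.85% and 4.37% of all genes, and these counts ranged from 2 to 9 higher and from 1 to 4 lower with single libraries left out. In the fit at a mean above 5 FPKM, 7 of 71 pathway genes were higher and 5 lower by these criteria, against 525 and 615 of 9095 genes. The groups did not overlap for 21 higher (26.6%) and 16 lower (20.3%) of the 79 genes, and the median log2 fold change was 0.06.

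**Figure D5:**
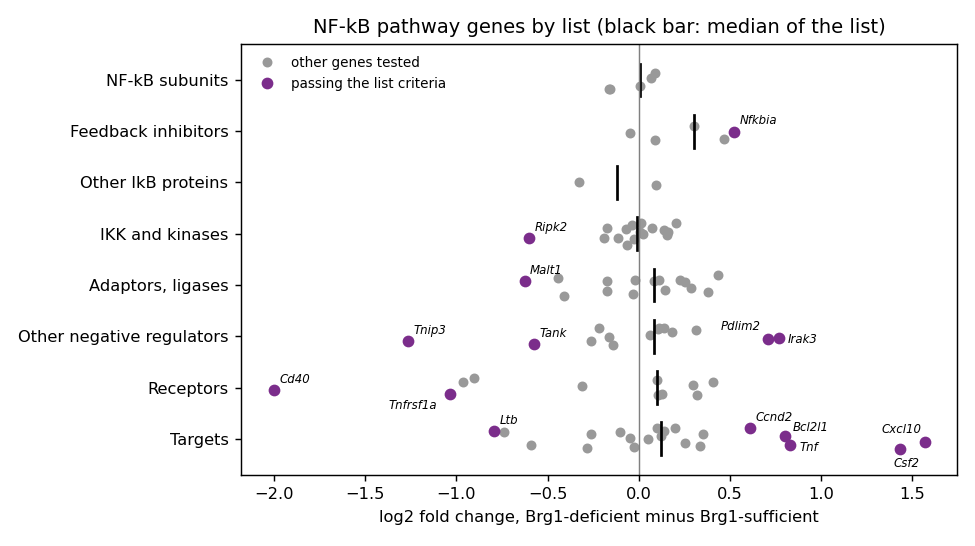
Log2 fold changes (Brg1-deficient over Brg1-sufficient) of the subunits, the inhibitors and the other pathway genes, 1 point per gene, grouped by role, with a black bar at each median and purple points for genes that met the list criteria. Each group has points on both sides of 0, with medians from -0.12 to 0.30.

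Of the remaining cytoplasmic inhibitors, Nfkbie (IkBε) was at 71.3 and 81.7 FPKM in controls and at 66.6 and 55.2 FPKM in Brg1-deficient cells (log2 fold change -0.33, adjusted p = 0.494, and -0.19 without Brg1-deficient replicate 2). Nfkbib (IkBβ) was at 121 and 88.8 FPKM in controls and at 115 and 107 FPKM in Brg1-deficient cells, with overlap. Thus Nfkbia and Nfkbie, which are both feedback inhibitors, were separated between the groups in opposite directions, and neither passed an adjusted p under 0.05 from limma.

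The 16 kinases of the IKK complex and upstream of it had a median of -0.01 on the log2 scale. By the list criteria 1 (6.25%) was lower, against 4.37% of all genes. That was Ripk2, the kinase that signals from NOD receptors, at 7.30 and 6.20 FPKM in controls and at 4.69 and 3.57 FPKM in Brg1-deficient cells (log2 fold change -0.60, adjusted p = 0.368 from limma). Ikbkg, which encodes the IKK scaffold NEMO, had a log2 fold change of 0.21 (0.086 without Brg1-sufficient replicate 2), and the kinase gene Tbk1 one of -0.18 (-0.069 without Brg1-sufficient replicate 1).

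Of 15 adaptors and ubiquitin ligases, 1 (6.67%) was lower by the list criteria, against 4.37% of all genes. This gene was Malt1. It encodes a protease that acts in 1 complex with Bcl10 downstream of antigen-type receptors. Malt1 was at 6.36 and 5.82 FPKM in controls and at 4.03 and 3.19 FPKM in Brg1-deficient cells (log2 fold change -0.63, adjusted p = 0.339), and Bcl10 was at 88.6 and 71.7 FPKM in controls and at 63.5 and 56.0 FPKM in Brg1-deficient cells (log2 fold change -0.41, adjusted p = 0.408 from limma, and -0.26 without Brg1-sufficient replicate 1). Myd88, the adaptor of Toll-like and interleukin-1 receptors, was at 61.1 and 83.8 FPKM in controls and at 95.4 and 99.0 FPKM in Brg1-deficient cells (log2 fold change 0.44, adjusted p = 0.430 from limma). The value of Myd88 was 0.21 without Brg1-sufficient replicate 1 and 0.66 without Brg1-sufficient replicate 2.

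The 14 other negative regulators split, with 2 higher (14.3%) and 2 lower (14.3%) by the list criteria, against 3.85% and 4.37% of all genes. Irak3, an inhibitory member of the IRAK family, was at 21.7 and 25.2 FPKM in controls and at 46.3 and 35.5 FPKM in Brg1-deficient cells (log2 fold change 0.77, standard error 0.191, adjusted p = 0.200 from limma). Tnip3, a gene of the A20-binding family, was at 10.1 and 7.54 FPKM in controls and at 2.59 and 3.58 FPKM in Brg1-deficient cells (log2 fold change -1.26, standard error 0.248, adjusted p = 0.134 from limma). Tank, a scaffold for TBK1, was at 54.2 and 45.6 FPKM in controls and at 34.6 and 31.7 FPKM in Brg1-deficient cells (log2 fold change -0.57, adjusted p = 0.244). The other gene called higher, named after its values were seen, was Pdlim2, at a log2 fold change of 0.71.

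Of 11 upstream receptors, Cd40 and Tnfrsf1a (18.2%) were lower by the list criteria, against 4.37% of all genes. Cd40 was at 4.65 and 8.09 FPKM in controls and at 1 and 0.6 FPKM in Brg1-deficient cells (log2 fold change -2.002, standard error 0.333, adjusted p = 0.104 from limma). Tnfrsf1a, which encodes the first tumor necrosis factor receptor, was at 5.25 and 9.07 FPKM in controls and at 2.80 and 2.95 FPKM in Brg1-deficient cells (log2 fold change -1.03, adjusted p = 0.247). Tnfrsf11a, which encodes RANK, was at 3.07 and 3.36 FPKM in controls and at 1.44 and 1.08 FPKM in Brg1-deficient cells (log2 fold change -0.90), under the level limit of the list criteria.

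Among B cell markers, Cd79b was lower in the same libraries as Cd40. Cd79b was at 8.68 and 10.02 FPKM in controls and at 1.03 and 0.99 FPKM in Brg1-deficient cells, while Ms4a1, Cd79a and Jchain were each under 1 FPKM in every library. The summed level of 7 ILC2 markers was also lower, at 312 and 192 FPKM in controls and 94.8 and 121 FPKM in Brg1-deficient cells. All 6 tested were separated downward, against 20.2% of all genes. Gata3 was the largest part of the sum, at 183 and 110 FPKM in controls and 74.5 and 105 FPKM in Brg1-deficient cells. In Brg1-sufficient replicates 1 and 2, Klrg1 was at 42.15 and 11.04 FPKM and Il5 at 24.8 and 1.64 FPKM, while Areg was at 26.7 and 58.7 FPKM. The T cell marker sum was 101 and 54.7 FPKM in controls and 29.5 and 32.7 FPKM in Brg1-deficient cells. Cd4 was its largest part in each library, at 43.55 and 32.75 FPKM in controls and 25.2 and 19.8 FPKM in Brg1-deficient cells. Cd3g was at 37.2 and 10.7 FPKM in controls and 1.21 and 5.04 FPKM in Brg1-deficient cells. Of 5 T cell markers tested, 4 (80%) were separated downward, against 20.2% of all genes, and 0 upward. The paper describes Rag1-/- mice as without T and B cells, and the Rag2-/-Il2rg-/- hosts as without adaptive immune cells or ILCs. The part of these genes in the results was not tested.

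Of 22 known NF-kB targets, 21 were tested. By the list criteria 5 (23.8%) were higher and 1 (4.76%) was lower, against 3.85% and 4.37% of all genes. The target list, which holds Csf2, was chosen with earlier results of these data known. Cxcl10, an interferon-induced chemokine, was at 74.0 and 88.6 FPKM in controls and at 269 and 218 FPKM in Brg1-deficient cells (log2 fold change 1.57, standard error 0.173, adjusted p = 0.0548 from limma). Csf2, which encodes GM-CSF and which the study had singled out in these cells, was at 245 and 199.7 FPKM in controls and at 564 and 638 FPKM in Brg1-deficient cells (log2 fold change 1.44, standard error 0.162, adjusted p = 0.0572 from limma). The cell cycle gene Ccnd2 was at 168 and 161 FPKM in controls and at 242 and 261 FPKM in Brg1-deficient cells (log2 fold change 0.61, adjusted p = 0.153). The other called genes, named after their values were seen, were Bcl2l1 (log2 fold change 0.80) and Tnf (0.83), higher, and Ltb (-0.79), lower. The median over the 21 targets was 0.12.

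Genes that are induced quickly, also when tissue is dissociated, were checked because Nfkbia is also quickly induced. Of 14 such genes, 6 (42.9%) were separated upward between the groups (Atf3, Egr1, Egr2, Fosb, Ier2 and Nr4a1), against 24.4% of all genes. Separated downward were 3 (21.4%, Hspa1a, Hspa1b and Jund), against 20.2% of all genes. Their median log2 fold change was 0.24, with 9 values above 0 and 5 below. By the list criteria 1 (7.14%) was higher, the transcription factor gene Egr2, against 3.85% of all genes. The heat shock genes Hspa1a and Hspa1b (14.3%) were lower, against 4.37% of all genes. The summed level of all 14 genes was 17777 and 22063 FPKM in controls and 18869 and 22243 FPKM in Brg1-deficient cells, with overlap. This sum adds genes of both directions. The part of dissociation in the level of Nfkbia was not tested.

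The gene models of the members were compared with their neighbours, since strand was not stated for the counting. Nfkbia lies on chromosome 12 of GRCm38 from 55489410 to 55492647 on the minus strand, and Nfkbiz, Nfkbid, Rel, Rela, Relb and Tnfaip3 like Nfkbia overlapped no other gene model. Nfkb1 (chromosome 3, 135584655 to 135691547, minus strand) holds Gm43430, at 24.4, 22.7, 20.8 and 19.1 FPKM in the 4 libraries, controls first. Nfkb2 (chromosome 19, 46304320 to 46312385, plus strand) shares 299 bases with Psd, at 51.1, 46.6, 65.8 and 54.4 FPKM in the same order. It shares 1292 bases with AC114539.1, for which no value was used here. Psd and AC114539.1 lie on the other strand. Reads of these overlaps could not be assigned with certainty. Antisense models within Bcl3 were at 1.22 FPKM or less.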

How the data were processed

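Per the submitters' processing notes and the paper's methods, the authors aligned single-end reads to GRCm38.p5 with STAR 2.5, quantified genes with RSEM 1.2 on GENCODE M16, and deposited 1 table of FPKM values per gene and library. Their sorted values were nearly equal between libraries; no source used here names a step that makes them so. Counts and depth were not used here. Libraries were grouped by their titles.

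Genes with a mean above 1 FPKM in either group were tested with limma 3.58.1 (lmFit, eBayes with trend) in R 4.3.3 applied to log2(FPKM + 1), and p values were adjusted by Benjamini-Hochberg across all 14739. The scripts were tested on simulated data. The members and the gene and marker lists were chosen with earlier results of these data known. Named genes were the members, Smarca4 and, in each pathway list, the 3 with the smallest p, and others are marked. Alternatives were the replicate number as a block, a pseudocount of 0.1, no filter or a mean above 5 FPKM, no trend, quantile normalization, median-of-ratios scaling and leaving out each library.

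Gene models came from GENCODE M21 and promoter windows from RefSeq on GRCm38.p6; Nfkb1, Relb and Nfkbiz were not in the promoter table. Summed levels of the marker lists not given above were 100.35 and 219 FPKM in controls and 86.2 and 52.8 FPKM in Brg1-deficient cells for ILC1 and NK cells, 107, 238, 79.7 and 221 FPKM for myeloid cells in the same order, 2.24 to 4.13 FPKM for epithelial and 64.3 to 89.7 FPKM for stromal and endothelial cells. Of the 11 ILC3 markers, 1 (9.09%) was higher by the list criteria, against 3.85% of all genes. Ncr1 and Ccr6 (18.2%) were lower, against 4.37% of all genes. Some labelled items and markers are not reported here.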

Additional observations from a re-analysis of the deposited data

How the results depend on the processing

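No member passed an adjusted p under 0.05 under any alternative run. Over all genes, the 12 higher and 33 lower calls became 150 and 248 under the replicate block, 41 and 73 at a mean above 5 FPKM, and 0 and 0 without a filter (1308 and 1400 at an unadjusted p under 0.05), in limma without trend (903 and 965) and with any library left out (735 to 1507 and 507 to 1675). The pathway genes gave 2 higher (Cxcl10, Csf2) and 1 lower (Cd40) call with the replicate block, and 2 higher at a mean above 5 FPKM. The list criteria gave 161 higher and 236 lower genes without a filter, and 38 to 745 and 61 to 671 with a library left out, fewest without Brg1-deficient replicate 2; of the pathway genes they gave 3 and 3 without a filter, and 2 to 9 and 1 to 4 with a library left out. Of the members they gave 0 after median-of-ratios scaling and 0 to 1 with a library left out, the 1 being Nfkbid. Nfkb2 turned to -0.027 after that scaling. With a library left out, log2 fold changes crossed 0 for Nfkb1 (-0.42 to 0.089), Nfkb2 (-0.18 to 0.20), Rel (-0.087 to 0.27), Rela (-0.16 to 0.30), Relb (-0.48 to 0.16), Tnfaip3 (-0.072 to 0.25), Bcl3 (-0.39 to 0.29) and Nfkbib (-0.13 to 0.32); the lone library was assumed to vary like the other group, and the cause was not tested. Same-numbered libraries deviated from their group means with a correlation of -0.000386, and no source ties the numbers to shared hosts, so the block was not used in the report.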
